A study of Mus musculus with 8 samples.

Results

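Mitochondrial mt-Atp8 and mt-Atp6 are encoded on 1 bicistronic mRNA, and their counts were followed through 8 cDNA libraries of mouse liver mitochondria. Both members were found by matching the Ensembl transcript identifiers of the deposited table to the mouse annotation, which gave 2 of the 13 mitochondria-encoded mRNAs and 2 of 8688 transcripts in all. The livers came from C57BL/6N mice with a wild-type (WT) genotype, aged 12 weeks (12 W) or 65 weeks (65 W), with 4 libraries per age group that the labels call biological replicates and no treatment in either group. The 12 W mice are given as female, and for the 65 W mice the sources used here name no sex. Mitochondria were isolated by differential centrifugation, treated with a nuclease and purified on sucrose gradients, and their RNA was reverse transcribed from a poly dT primer, amplified with barcoded primers and sequenced on a Nanopore device. Libraries are named by age and replicate number, from 12W-1 to 65W-4.

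Atp6 is the subunit of the F1Fo ATP synthase membrane sector that, together with the ring of c subunits, forms the path of the protons. Atp8 is a short single-span membrane protein of the same sector. Both open reading frames lie on the heavy-strand transcript, the long polycistronic precursor from which most mitochondrial mRNAs are released by excision of the tRNAs between them. No tRNA separates Atp8 from Atp6, which stay together on 1 mRNA, and none separates Atp6 from Cox3, the subunit 3 of cytochrome c oxidase, although that junction is cut. Nd4l and Nd4, subunits of complex I, form the other bicistronic mRNA of the mitochondrial genome.

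On the mouse genome GRCm38, Atp8 (ENSMUST00000082407.1) is annotated at chrM:7766-7969 on the plus strand and is 204 nt long. Atp6 (ENSMUST00000082408.1) is annotated at chrM:7927-8607 and is 681 nt long. Each is a single coding exon, and the last 43 nt of Atp8 are at the same time the first 43 nt of Atp6, read in another frame. The shared bases make up 21.1% of Atp8 and 6.31% of Atp6, and the span of both is 842 nt. The sequences are shown because a read confined to the shared bases cannot be assigned to either member, and capitals mark the shared bases. The first line gives the whole of Atp8, and the second gives the first 120 nt of Atp6, at chrM:7927-8046, both 5′ to 3′ on the plus strand.
Atp8: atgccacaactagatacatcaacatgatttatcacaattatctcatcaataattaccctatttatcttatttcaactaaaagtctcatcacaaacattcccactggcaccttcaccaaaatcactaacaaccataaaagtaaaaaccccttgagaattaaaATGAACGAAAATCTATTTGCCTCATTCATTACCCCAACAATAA
Atp6, first part: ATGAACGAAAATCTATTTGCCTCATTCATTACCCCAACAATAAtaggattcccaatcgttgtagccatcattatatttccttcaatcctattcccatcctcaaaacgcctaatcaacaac

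Upstream of Atp8 lie the lysine tRNA gene mt-Tk, at chrM:7700-7764, and Cox2 (mt-Co2), at chrM:7013-7696. Downstream, the last base of Atp6 is also the first base of Cox3 (mt-Co3), which is annotated at chrM:8607-9390. The 120 nt around this junction, at chrM:8548-8667 on the plus strand, are shown because both mRNAs are followed together later, and the single capital is the shared base. The overlap of Nd4l and Nd4 is shorter, at 7 nt, and the capitals in the last line mark it within chrM:10114-10233 on the plus strand.
Atp6/Cox3 junction: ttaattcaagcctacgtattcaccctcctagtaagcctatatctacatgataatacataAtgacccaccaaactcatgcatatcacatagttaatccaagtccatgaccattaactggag
Nd4l/Nd4 junction: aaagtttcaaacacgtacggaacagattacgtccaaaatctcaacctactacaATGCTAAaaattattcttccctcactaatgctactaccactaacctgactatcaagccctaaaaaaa

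The libraries held 104554 to 191092 counts at 12 W and 12630 to 105252 at 65 W. The libraries 65W-1 and 65W-3 were the shallowest, so the age comparisons are also given without both of them. They also had, in this order, the lowest and the highest Atp6 share of the mitochondria-encoded mRNAs. The 13 mitochondria-encoded mRNAs took 74.8% to 82.4% of the counts of a library. The table used here includes no ribosomal RNA rows, so shares refer to the summed counts of these 13 mRNAs. The hepatocyte marker list had 7 of 7 genes with counts, led by Alb, and took 1.17% to 2.10% of a 12 W and 0.936% to 1.66% of a 65 W library. Over all libraries, the markers of blood cells summed to 68 counts with 3 of 4 genes detected, of Kupffer cells to 136 with 5 of 5, of liver endothelial cells to 12 with 3 of 3, of stellate cells to 27 with 3 of 3, and of cholangiocytes to 1 with 1 of 3. Each of the 12 pairs of same-age libraries differed over the 13 mRNAs by more than the sampling of independent reads gives (chi-square test). The reads were amplified by PCR and carry no molecular identifiers, so the true sampling noise can be larger than this test assumes.

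Atp8 held the higher count of both members in 7 of 8 libraries, although its annotated transcript is the shorter. Atp8 had 14272, 6938, 11390 and 10114 counts in 12W-1 to 12W-4, and 1078, 5870, 1251 and 8772 counts in 65W-1 to 65W-4. Atp6 had 7419, 5070, 6156 and 7433 counts at 12 W and 418, 3713, 1372 and 4096 counts at 65 W, in the same order. The exception was 65W-3, in which Atp6 exceeded Atp8. Summed over the libraries, Atp8 reached 59685 counts and Atp6 35677 counts.

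Per length, Atp8 had the highest level of the 13 mRNAs in every library, whereas by summed counts it ranked 4. Levels were expressed as counts per kb of annotated transcript per 1000 counts on the 13 mRNAs. Atp8 lay at 466, 405, 482 and 419 in the 12 W libraries and at 541, 407, 362 and 503 in the 65 W libraries. The next mRNA, Nd4, a core subunit of complex I, ranged from 219.5 to 279 and did not overlap with Atp8. Atp6 lay at 72.5, 88.7, 78.1 and 92.2 at 12 W and at 62.8, 77.0, 119 and 70.3 at 65 W, which placed its mean sixth of the 13 mRNAs. Its neighbours in this order, Nd1 with a mean of 91.7 ± 17.0 and Cox2 with 70.2 ± 13.9 (SD, n = 8 each), had ranges that overlapped with that of Atp6. Over all 8 libraries the level averaged 448 ± 59.7 (SD) for Atp8 and 82.6 ± 17.5 (SD) for Atp6.

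**Figure D1:**
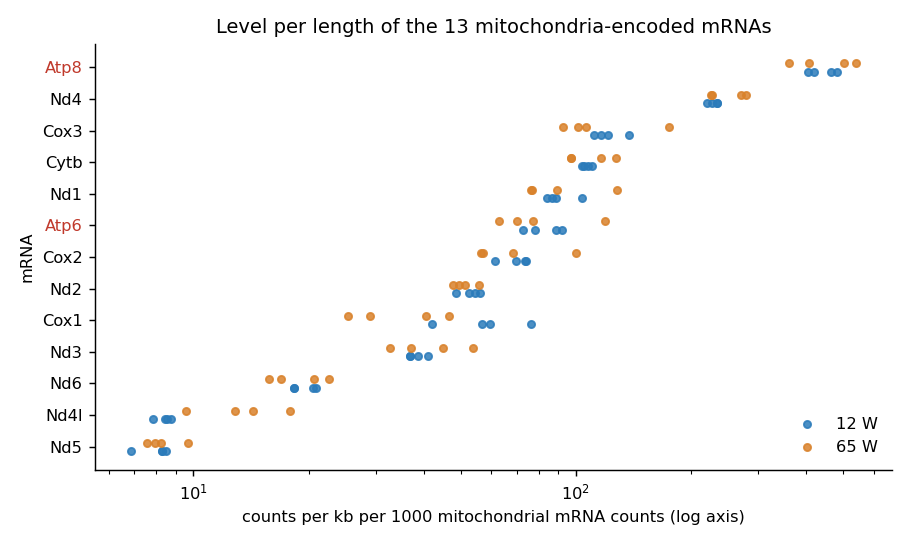
Each row is 1 mitochondria-encoded mRNA and each point 1 library, with counts per kb per 1000 mitochondrial mRNA counts on a log axis. By this per-length measure, Atp8 lies above all other mRNAs in the 12 W and the 65 W libraries, whereas Atp6 lies in the middle of the order and overlaps with Nd1 and Cox2.

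The annotated ends enter these values directly, because the count of a short transcript is divided by a small length. Without that division, the summed counts of Nd4 (214849), the cytochrome b mRNA Cytb (80614) and Cox3 (60255) lay above that of Atp8 (59685). The cDNA was primed with poly dT, and the study describes no fragmentation step. Whether counts scale with transcript length in these libraries was not tested. The order per length is therefore not to be read as an order of abundance. Atp8 had a per-length level of 4.54 to 6.42 times that of Atp6 at 12 W and 3.04 to 8.61 times at 65 W. A full-length read of the bicistronic mRNA covers both annotations, and the rule by which such a read was counted is not given in the sources used here. How much of the difference lies in that rule and how much in the RNA cannot be told apart with these counts.

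**Figure D2:**
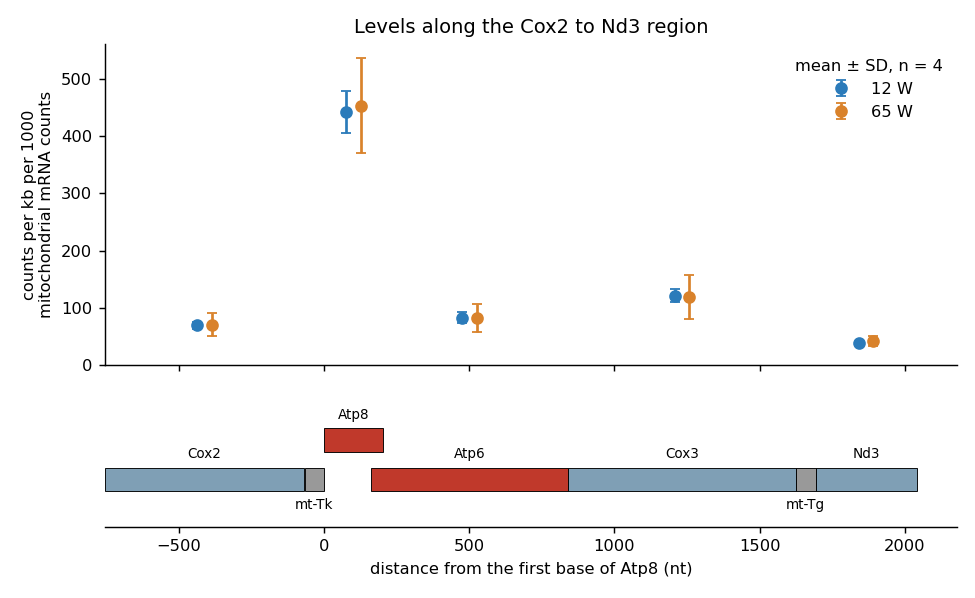
The upper panel plots the mean level of each mRNA at 12 W and 65 W (counts per kb per 1000 mitochondrial mRNA counts, bars are SD, n = 4) over its place in the lower panel, which is drawn to scale by distance in nt from the first base of Atp8. The level per length is highest at Atp8, with means of 443 at 12 W and 453 at 65 W, and Cox2, Atp6, Cox3 and Nd3 all lie below it.

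In base composition Atp8 stood at the end of the 13 mRNAs. It had the lowest GC content, at 31.9%, and 40.7% of its bases were A, whereas Atp6 had a GC content of 36.0%. The A-richest 20 nt window of Atp8 held 14 A, a value shared with Nd2 as the highest of the 13, and that of Atp6 held 11 A. These windows are shown, with A in capitals, because the cDNA was primed with poly dT. That of Atp8 lies at chrM:7891-7910, upstream of the bases shared with Atp6, and that of Atp6 at chrM:8076-8095, both on the plus strand. The longest uninterrupted run of A had 5 nt in both members, whereas 5 of the 13 mRNAs had a run of at least 6. Whether the windows served as priming sites was not tested.
Atp8 A-richest window: AAcAAccAtAAAAgtAAAAA
Atp6 A-richest window: tAAActtAttAtcAAAcAAA

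The order of the upstream and downstream reading frame was the opposite in the other bicistronic mRNA. For each 100 counts of Nd4, Nd4l had 0.810, 0.776, 0.720 and 0.857 counts at 12 W and 1.71, 0.761, 1.36 and 0.993 counts at 65 W. Per length, Nd4l reached 0.0334 to 0.0795 of the level of Nd4. On the log2 scale the per-length ratio of Atp8 to Atp6 exceeded that of Nd4l to Nd4 by 6.95 ± 0.617 (SD, n = 8), or 123-fold. It was higher in 8 of 8 libraries (two-sided exact sign-flip permutation test, p = 0.00781, the smallest this design allows, and 0.0469 after Benjamini-Hochberg adjustment over the 6 tests of single values). The annotated lengths are the same in all libraries, and a counting rule common to them would shift each library alike. This p therefore cannot tell such a fixed offset from a difference in the RNA. Without any 1 library this difference was between 6.86 and 7.14, and without 65W-1 and 65W-3 it was 7.21.

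The count ratio of Atp8 to Atp6 varied most among the 65 W libraries. It was 1.92, 1.37, 1.85 and 1.36 in 12W-1 to 12W-4, and 2.58, 1.58, 0.912 and 2.14 in 65W-1 to 65W-4. The highest and the lowest ratio were thus found in the shallowest libraries, 65W-1 and 65W-3, and the 12 W values lay between them. Their 95% Wilson intervals were 2.30 to 2.89 for 65W-1 and 0.845 to 0.984 for 65W-3, which cover counting error only, since the reads were amplified by PCR and carry no molecular identifiers. These intervals overlapped with those of no other library.

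No difference in the ratio between the age groups was detectable. The mean ratio was 1.63 ± 0.303 at 12 W and 1.80 ± 0.721 at 65 W (SD over the 4 libraries of each group). On the log2 scale the 65 W mean was 0.07 above the 12 W mean, with a 95% interval from -1.08 to 0.92 (two-sided exact permutation test over 70 assignments, p = 0.857, adjusted p = 0.943). As a fold this is 1.05, with an interval from 0.474 to 1.89, so that neither a halving nor a rise by 1.5 times would lie outside it. The smallest p that 4 against 4 libraries allow is 0.0286. Without 65W-1 and 65W-3 the log2 difference was 0.20 (exact permutation test, p = 0.533, where the smallest possible is 0.133).

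**Figure D3:**
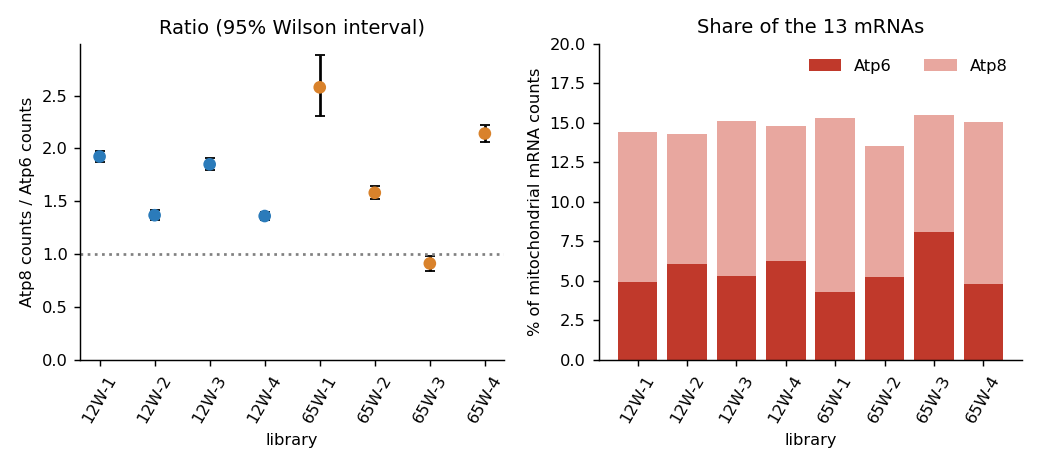
The left panel plots the Atp8 to Atp6 count ratio of each library with its 95% Wilson interval (blue, 12 W; orange, 65 W; the dotted line marks equal counts), and the right panel stacks both members as % of the counts of the 13 mRNAs. The ratio spreads from 0.912 in 65W-3 to 2.58 in 65W-1, whereas the summed bars stay between 13.5% and 15.5%.

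As a share of the 13 mRNAs, both members together varied less than either alone. Atp8 took 9.50%, 8.27%, 9.84% and 8.54% at 12 W and 11.0%, 8.29%, 7.38% and 10.3% at 65 W. Atp6 took 4.94%, 6.04%, 5.32% and 6.28% at 12 W and 4.28%, 5.25%, 8.09% and 4.79% at 65 W. Their sum was 14.4%, 14.3%, 15.2% and 14.8% at 12 W and 15.3%, 13.5%, 15.5% and 15.0% at 65 W. Between the extreme libraries the Atp8 share differed 1.49-fold, the Atp6 share 1.89-fold and the summed share 1.14-fold. In 7 of 8 libraries a share of Atp8 above its mean on the log2 scale went with a share of Atp6 below its mean, or the reverse, and in 65W-2 both lay below. Cox2, which is on another mRNA, likewise lay on the other side of its mean from Atp8, except in 12W-3 and 65W-2. Sums of other pairs were not compared, so whether the steadier sum is particular to these members was not tested. Shares of 1 total are not free of each other, and what part of this pattern that accounts for was not tested.

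The shares of the age groups overlapped for both members. The Atp8 share averaged 9.04% ± 0.750 in the 12 W group and 9.24% ± 1.69 in the 65 W group (SD, n = 4 each). The difference of 0.205 percentage points had a 95% interval from -2.45 to 2.76 (p = 0.800 and 0.943 after adjustment, exact permutation test). The Atp6 share averaged 5.64% ± 0.623 in the 12 W group and 5.60% ± 1.71 in the 65 W group (SD, n = 4 each), a difference of -0.0410 percentage points with an interval from -2.00 to 3.16 (p = 0.943 before and after adjustment, exact permutation test). Of all 13 mRNAs, 1 (7.69%) had shares that did not overlap between the age groups, and this was Nd4l. Without 65W-1 and 65W-3 the difference was 0.241 percentage points for Atp8 (exact permutation test, p = 0.667) and -0.625 for Atp6 (exact permutation test, p = 0.267). These shares are relative to the other mitochondrial mRNAs and give no absolute amount of either member. The mitochondria came from liver homogenates, so a change in the mix of cells and a change within cells cannot be told apart.

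The comparison of 65 W with 12 W by edgeR's quasi-likelihood test likewise called neither member. With the 12 mRNAs other than Cox1 as the reference, the log2 fold change was -0.02 (SE 0.15) for Atp8 and -0.07 (SE 0.19) for Atp6, both with an adjusted p of 0.968. In this fit 2 of 13 mRNAs were called, a background of 15.4%, namely Cox1 with -0.79 (SE 0.23) and Nd4l with 0.57 (SE 0.16), both with an adjusted p of 0.0339 in edgeR. The median log2 fold change of all 13 was -0.02. Without 65W-3 the Atp6 value was -0.29 (SE 0.12, unadjusted p = 0.0362 and adjusted p = 0.118 in edgeR) and the Atp8 value 0.07. Without 65W-1 or without 65W-4 it was 0.029 or 0.0073, so its sign depends on single libraries. Without both shallow libraries Atp6 was at -0.23 (SE 0.15, adjusted p = 0.333 in edgeR) and Atp8 at -0.026. The number of mRNAs called was 0 without 12W-1, 12W-2, 12W-4, 65W-3 or 65W-4, 1 without 12W-3 or 65W-2, and 2 without 65W-1.

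**Figure D4:**
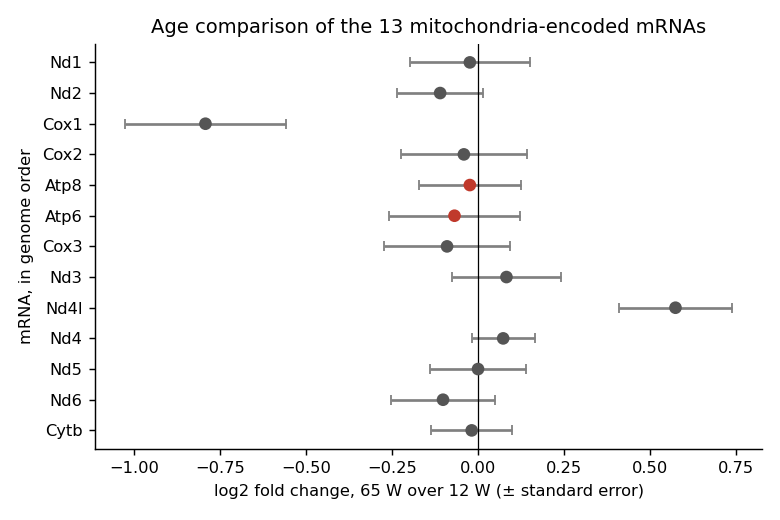
Points are log2 fold changes of 65 W over 12 W for the 13 mitochondria-encoded mRNAs in genome order (4 libraries per group). The standard errors were derived from the fold change and the F statistic of edgeR. Atp8 and Atp6 (red) lie at -0.02 and -0.07 with bars that cross 0, and Cox1 at -0.79 and Nd4l at 0.57 lie farthest from 0.

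Over the 132 transcripts with enough counts for a test, the log2 fold change was 0.01 (SE 0.28, adjusted p = 0.998) for Atp8 and -0.11 (SE 0.26, adjusted p = 0.915) for Atp6 in edgeR with TMM normalization. In this fit 2 of 132 transcripts (1.52%) were called, neither of them a member, and the median over all was -0.15. Without 12W-2 there were 7 calls and without 12W-3 there was 1, again with no member among them. Without both shallow libraries there were 4 calls, and the values were 0.39 (SE 0.38) for Atp8 and 0.23 (SE 0.43) for Atp6, with adjusted p-values of 0.744 and 0.887 in edgeR. The age difference of the Atp8 to Atp6 ratio was also compared with that of the Nd4l to Nd4 ratio. On the log2 scale it was lower by 0.49, written as -0.49 with an interval from -1.95 to 0.44 (exact permutation test, p = 0.343, adjusted p = 0.943), and without both shallow libraries it was 0.06. The sign of this difference thus rests on the shallow libraries.

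Across the 8 libraries the Atp6 counts shifted more closely with those of Cox2 and Cox3 than with those of Atp8. Likeness was measured as the SD over the 8 libraries of the log2 count ratio of 2 mRNAs, a low SD meaning that both shifted together, and all 78 pairs of the 13 mRNAs were ranked. The pair of Atp6 and Cox2 had the smallest SD of all, 0.07, against 0.05 from counting error alone, and its ratio stayed between 1.10 and 1.24. The pair of Atp6 and Cox3 ranked second with 0.08, and its ratio stayed between 0.560 and 0.664. The third mRNA most like Atp6 was Nd3, a complex I subunit encoded downstream of Cox3, with an SD of 0.18. By contrast, the pair of Atp8 and Atp6 ranked 60 of 78 with an SD of 0.47, against 0.04 from counting error, and its ratio spanned a 2.83-fold range. These counting errors treat each read as independent, so PCR copies can make them too low.

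Atp8 was most like mRNAs encoded elsewhere on the mitochondrial genome. Its closest was Cytb, the cytochrome b of complex III, with an SD of 0.12 (rank 4 of 78) and a ratio between 0.663 and 0.829. The complex I subunits Nd5, with 0.14, and Nd1, with 0.19, came next. For Atp8, Atp6 was the 11th closest of the 12 other mRNAs. These values are descriptions over 8 libraries that share 1 total per library.

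The deviations of the single libraries show where the pairs parted. In 65W-3 the log2 share lay above the mean of the 8 libraries by 0.55 for Atp6, 0.53 for Cox2 and 0.57 for Cox3, whereas Atp8 lay at -0.30. In 65W-1 the signs were turned, with -0.37 for Atp6, -0.28 for Cox2, -0.35 for Cox3 and 0.28 for Atp8. Atp6, Cox2 and Cox3 had deviations of 1 sign in 6 of 8 libraries. The largest deviations of Atp6 were thus in both shallow libraries.

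**Figure D5:**
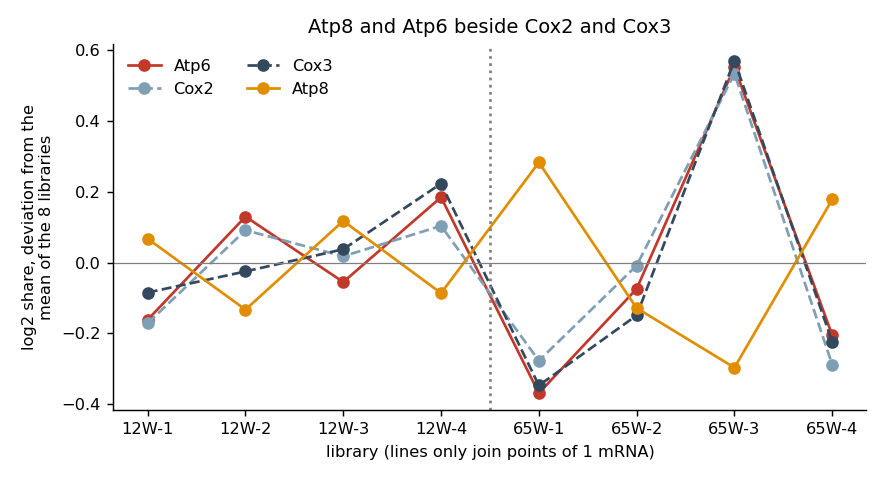
The log2 share of each mRNA among the 13 is plotted per library as its deviation from the mean of the 8 libraries (lines only join the points of 1 mRNA, and the dotted line separates 12 W from 65 W). Atp6, Cox2 and Cox3 run close to each other, with a peak near 0.55 in 65W-3, whereas Atp8 lies on the other side of 0 from Atp6 in 7 of 8 libraries.

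Leaving out the shallow libraries, a check chosen after the values were seen, changed some of these ranks. Without 65W-1 and 65W-3, the SD was 0.07 for Atp6 and Cox2 (rank 1 of 78), 0.10 for Atp6 and Cox3 (rank 3), 0.11 for Atp8 and Cytb (rank 5) and 0.27 for Atp8 and Atp6 (rank 56). In the 4 libraries of 12 W alone, Atp6 and Cox2 still ranked 3 with 0.06, but Atp6 and Cox3 ranked 23 with 0.11 and Atp8 and Cytb 28 with 0.13. The mRNA closest to Atp8 was then Nd1, with 0.07 and rank 5. At 12 W, Nd2, which does not neighbour Atp6, was closer to Atp6 than Cox3 was, with 0.09 and rank 9. Without both shallow libraries Nd2 lay near Cox3, with 0.10 and rank 4, whereas over all 8 libraries it had 0.26. In these subsets the SDs of Nd2 and Cox3 lay close together, and whether closeness to Atp6 follows genome position was not tested. The pair of Atp8 and Atp6 ranked 66 at 12 W and 73 at 65 W, with SDs of 0.27 and 0.66.

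The ratio of Atp6 to Cox3, across the junction without a tRNA, did not differ detectably with age. It averaged 0.593 ± 0.0486 in the 12 W group and 0.603 ± 0.0190 in the 65 W group (SD, n = 4 each). On the log2 scale the difference was 0.03, with a 95% interval from -0.18 to 0.17 (p = 0.714 and 0.943 after adjustment, exact permutation test). The interval is narrower than that of the Atp8 to Atp6 ratio and leaves folds from 0.885 to 1.12. Without 65W-1 and 65W-3 the log2 difference was 0.060 (exact permutation test, p = 0.533).

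Reads of Atp6 could also be counted on a nuclear copy of the gene. Gm10925 (chr1:24613974-24614651, minus strand, 678 nt) is identical to the first 678 nt of Atp6 over its whole length, with an identity of 100%. It had 892, 376, 689 and 879 counts at 12 W and 37, 414, 128 and 518 counts at 65 W, which is 7.42 to 12.6 for each 100 counts of Atp6. Reads from either cannot be told apart by sequence within these bases, so the division of counts between them is uncertain. A second copy, Gm43743 (chr3:94334394-94335090, minus strand), aligned with Atp6 over 116 nt at 94.8% identity and had 100 counts in all. No nuclear transcript of the table aligned with Atp8 over at least 100 nt.

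Both neighbours have copies beside Gm10925 on chromosome 1. Gm28437 is the copy of Cox3, with 19.2 to 22.1 counts for each 100 of Cox3, and Gm28661 that of Cox2, with 1.98 to 6.44 for each 100 of Cox2. The 233 nt between Gm10925 and Gm28661 hold no transcript, so a copy of Atp8 there would have no row to be counted on. Whether these bases hold such a copy was not tested. With the copies of Atp6 summed into it, the ratio of Atp8 to Atp6 was 1.22 to 1.71 at 12 W and 0.832 to 2.37 at 65 W. The difference between the age groups on the log2 scale was again 0.07 (exact permutation test, p = 0.857). In the all-transcript fit Gm10925 had a log2 fold change of -0.05 (SE 0.27, adjusted p = 0.935 in edgeR), close to the value of Atp6.

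The partner subunits of the ATP synthase are encoded in the nucleus, and their cytosolic mRNAs were rare in these purified mitochondria. Of 22 nuclear genes for ATP synthase subunits and assembly factors, 19 had a row, with 360 counts over all libraries and 5 to 101 per library. The highest were the catalytic subunit gene Atp5b and Atp5e with 35 counts each, the stalk subunit gene Atp5j with 31, Atp5l with 28 and Atp5a1 with 25. None of the 22 had enough counts for the fit, so no statement on their change with age can be made at this depth. Factors of mitochondrial RNA synthesis, processing and stability were rarer still, with 6 of 19 genes having a row, 16 counts in all and none in the fit. Among these were Hsd17b10, a subunit of mitochondrial RNase P, and Slirp with 5 counts each, Fastk and Lrpprc, the partner of Slirp in mRNA stability, with 2 each, and Pnpt1 with 1.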

How the data were processed

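RNA from gradient-purified liver mitochondria was measured in 8 Nanopore PCR-cDNA libraries, 4 per age group, and the age in each label set its group. Reads were counted by the authors with the differential gene expression workflow of Epi2Me Labs, and the deposited table holds raw counts for each Ensembl transcript. The submitters' processing notes name minimap2, SAMtools, edgeR and GRCm38 or mm10, without their roles. The rule for reads on overlapping transcripts is not given in the sources used here. Of 8688 identifiers, 8591 were matched to the GENCODE annotation of GRCm38, 29 of them through another version, and the 97 others held 0.0946% of the counts.

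The members and gene lists were chosen with earlier results of these data known. The genes named are both members, their genome neighbours, Nd4l and Nd4, nuclear copies aligned over at least 100 nt (blastn 2.17.0), the 3 mRNAs most like each member, and up to 5 genes with most counts per list. Other called or ranked genes were chosen after their values were seen. The ribosomal RNA that the study used as reference was not analysed here, and the 12 mRNAs other than Cox1 took its place. Over the 13 mRNAs, and with TMM over the 132 transcripts kept by filterByExpr, groups were compared with edgeR 4.0.16 (R 4.3.3, quasi-likelihood test, threshold of 0.05 on the Benjamini-Hochberg adjusted p). This test reports no standard error, so each SE given is the absolute log2 fold change divided by the square root of the F statistic. For single values, exact permutation tests, two-sided, were used (numpy 2.4.6), adjusted over 6 tests, with a pseudocount of 0.5 on log2 ratios. The 95% intervals of differences were obtained by inverting these tests. Wilson intervals and the chi-square comparison of same-age libraries were computed with scipy 1.17.1. Alternatives were other scalings, filters, DESeq2 1.42.0, a pseudocount of 1, summed copies, a replicate block, and leaving out libraries. Likeness was recomputed on fewer libraries after the data were seen.

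Total counts ranged from 12630 to 191092. The counting error of each ratio depends on the counts of both its mRNAs. As computed it treats reads as independent, so PCR copies can make it too low. The spread between libraries was larger than this counting error for the Atp8 to Atp6 ratio. The p-values measure the spread between the libraries, whose labels give separate biological replicates without naming the animals.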

Additional observations from a re-analysis of the deposited data

Results flagged for a closer look

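In 65W-3, Cox3, the mRNA that follows Atp6 on the genome, took 13.7% of the counts of the 13 mRNAs, and this library lay farther from the other 65 W libraries than Dixon's test allows at 95%. It was 1 of 20 groups tested, and chance gives about 1 in 20. The other 65 W libraries had 7.27%, 8.34% and 7.93%. In the same library Atp6 had its highest share, 8.09%, and Cox2 its highest, 6.84%, neither of which was past that limit.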

How the results depend on the processing

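Neither member was called under any alternative of either fit. The per-length difference of Atp8 to Atp6 against Nd4l to Nd4 stayed between 6.86 and 7.21 in all 10 alternatives run. Its unadjusted exact p, between 0.00781 and 0.0313, was the smallest that each number of libraries allows and was not adjusted over the 6 tests. An offset fixed by the annotation or the counting rule would give the same p. The age difference of Atp6 to Cox3 kept its sign in all 12 alternatives, from 0.00027 to 0.083, and those of the other values turned in at least 1. Leaving out each library in turn gave log2 differences from -0.14 to 0.36 for the Atp8 to Atp6 ratio and from -0.68 to -0.11 for its contrast with Nd4l to Nd4, and differences in share from -0.391 to 0.825 percentage points for Atp8 and from -0.872 to 0.401 for Atp6. It gave 0 to 2 calls over the 13 mRNAs, with log2 fold changes from -0.13 to 0.072 for Atp8 and from -0.29 to 0.029 for Atp6, and 1 to 7 calls over all transcripts, with -0.080 to 0.23 for Atp8 and -0.19 to 0.24 for Atp6. With the 12 mRNAs other than Cox1 as denominator the Atp8 share difference was -0.154. Over the 13 mRNAs, Atp8 was at 0.031 with all 13 mRNAs and at 0.045 with all counts as library size, and at 0.0095 with TMM, which called 1 mRNA. Over all transcripts there were 0 calls without scaling, 7 with DESeq2, 1 with at least 10 counts in every library and 4 without both shallow 65 W libraries. Without a filter Atp8 was at -0.51 and Atp6 at -0.61, and with at least 10 counts Atp6 was at 0.064. Without the shallow libraries Atp8 was at 0.39, Atp6 at 0.23 and the contrast with Nd4l to Nd4 at 0.057. The causes were not tested.

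No pairing by replicate number was assumed in the main comparisons. The same-numbered libraries deviated with correlations of 0.70, 0.36, 0.05 and -0.23, which were not set against those of differently numbered libraries. Whether the numbers pair the libraries is therefore not known. With the replicate block there were 2 calls over the 13 mRNAs and 3 over all transcripts, where Atp8 was at -0.025 and Atp6 at -0.094, and the ratio difference of 0.07 had an exact p of 0.875. The counting intervals of 65W-1 and 65W-3 are narrow beside the spread of the 65 W ratios, and what part depth has in that spread was not tested.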
